A study of Mus musculus with 12 samples.

Results

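Mitochondrial ribosomal proteins are the protein subunits of the ribosome that works inside mitochondria, and their genes carry the symbols Mrpl (large subunit) or Mrps (small subunit) followed by a number. The genes were chosen by symbol alone: the platform annotation paired 127 of the 22690 probe sets with a single symbol of this form, which gave 74 genes, 47 of them Mrpl and 27 Mrps. After a filter on low signal, 109 of these probe sets were tested, and each of the 74 genes kept at least 1 of them. The RNA came from mouse embryonic fibroblasts (MEFs) in primary culture, cells grown out of embryos of embryonic day 13.5 and taken to passage 2. There were 4 groups, untreated wildtype MEFs, untreated Rb null (Rb-/-) MEFs, wildtype MEFs given 16 µM cisplatin for 24 h and Rb null MEFs given the same. Cisplatin is a platinum drug that forms adducts and crosslinks in DNA, and Rb1 encodes the retinoblastoma protein, which holds back the E2F transcription factors that drive entry into S phase. Each group had 3 Affymetrix arrays, 12 in all, and per the study design the 3 arrays of a group carried a single RNA sample. The p-values below therefore measure the spread between hybridizations, and the difference between cultures or embryos is not covered. The labels name neither the strain, the sex of the embryos nor the structure of the Rb allele, and a difference in bulk RNA does not tell fewer cells of a kind from less RNA per cell.

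Mitochondrial ribosomes translate the mRNAs of mitochondrial DNA, which encode core subunits of the respiratory chain. Their rRNAs are made in the mitochondrion, whereas every one of their proteins is encoded in the nucleus, made in the cytosol and imported. Many of these proteins have relatives in the bacterial ribosome, and others were added in the mitochondrial lineage; both kinds are needed for oxidative phosphorylation. The promoters of such genes often lack a TATA box and carry sites for NRF1, for the ETS factor GABP and for YY1.

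Promoter windows, 250 bases before and 50 after the transcription start (RefSeq, GRCm38.p6), were at hand for 65 of the 74 genes. Mrps28, the gene that changed most (below), was among those without a window. The motif letters searched on both strands were CGCANGCGC for the NRF1 core, CCGGAAG for ETS, AAGATGGC for YY1, TTTGGCGC and TTTCCCGC for E2F, and CCAAT for the CCAAT box, and matches to different motifs were allowed to overlap. The NRF1 core was found in 17 of the 65 genes (26.2%) against 7.12% of all 27025 genes with a window and 17% of the 6498 tested genes with a window. ETS letters were found in 24 (36.9%) against 9.93% of all and 21.6% of tested genes, and YY1 letters in 11 (16.9%) against 3.19% and 5.74%. At least 1 of these 3 motifs stood in 41 of the 65 (63.1%), against 17.9% of all genes and 37.8% of tested genes. Each E2F motif occurred in 1 of the 65 windows' genes (1.54%), against 0.585% and 1.24% of all and 1.25% and 2.6% of tested genes, and the CCAAT box in 25 (38.5%) against 41.1% and 43%. These shares describe letters in a window of 300 bases and do not show that a factor binds there. Below are the 250 bases before the start of the 4 genes that rose with cisplatin in both genotypes. They lie at chr16:84735245-84735494 (minus strand, Mrpl39), chr11:97315466-97315715 (plus, Mrpl45), chr13:118387253-118387502 (minus, Mrps30) and chr8:22411090-22411339 (plus, Mrps31), each written 5′ to 3′ on the strand of the gene, with matches to the NRF1 core and the CCAAT box in capitals.
Mrpl39: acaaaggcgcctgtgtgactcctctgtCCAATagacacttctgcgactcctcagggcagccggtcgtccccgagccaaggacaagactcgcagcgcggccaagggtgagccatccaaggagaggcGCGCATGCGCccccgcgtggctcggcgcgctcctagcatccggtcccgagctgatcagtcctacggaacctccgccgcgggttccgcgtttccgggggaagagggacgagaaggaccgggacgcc
Mrpl45: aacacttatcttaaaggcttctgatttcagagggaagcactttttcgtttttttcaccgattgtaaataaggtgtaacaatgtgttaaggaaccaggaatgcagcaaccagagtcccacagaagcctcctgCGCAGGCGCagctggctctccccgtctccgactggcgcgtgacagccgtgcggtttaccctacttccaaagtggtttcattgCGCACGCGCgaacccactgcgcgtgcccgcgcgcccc
Mrps30: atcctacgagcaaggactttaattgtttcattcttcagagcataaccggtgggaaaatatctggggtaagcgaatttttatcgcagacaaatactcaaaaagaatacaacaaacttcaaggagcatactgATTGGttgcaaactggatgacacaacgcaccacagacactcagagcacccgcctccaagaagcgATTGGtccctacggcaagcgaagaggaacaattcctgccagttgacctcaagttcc
Mrps31: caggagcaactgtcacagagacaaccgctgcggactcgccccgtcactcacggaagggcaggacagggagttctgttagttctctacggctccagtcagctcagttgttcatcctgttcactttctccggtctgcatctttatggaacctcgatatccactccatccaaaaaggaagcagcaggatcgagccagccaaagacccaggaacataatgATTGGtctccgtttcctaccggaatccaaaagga
Mrpl39 held a palindrome that reads as the NRF1 core on both strands, 124 to 125 bases before the start, and a CCAAT box farther upstream. In Mrpl45 the NRF1 core stood at 119 and 37 bases before the start, and another match, on the reverse strand, began 15 bases after it, beyond the stretch printed. Mrps30 and Mrps31 held neither NRF1, ETS nor YY1 letters in the window; both held CCAAT boxes on the reverse strand. The 4 promoters thus had no searched motif in common.

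Before the comparisons, the labels were checked on genes that mark them. The Rb1 signal was 460 ± 35.4 (SD, n = 3) in untreated and 383 ± 60.1 in cisplatin-treated wildtype arrays, and 94.0 ± 10.0 and 89.6 ± 14.5 in the matching Rb null arrays. Sex-linked transcripts set the untreated wildtype group apart: Xist, expressed from the inactive X chromosome, read 132 there and 2379 to 3443 as the mean of the other groups, and the Y-linked Eif2s3y read 478 there and 1.27 to 6.63 elsewhere. The untreated wildtype RNA therefore carried another sex-linked profile than the other 3 samples, and whether this bears on any ribosomal protein gene was not tested. Untreated Rb null against untreated wildtype, the wildtype response to cisplatin and the difference between the responses rest on those arrays; the Rb null response and the comparison of genotypes after cisplatin do not, and fitted without that group they kept the counts of 6 higher and 4 lower, and of 1 higher and 5 lower, given below. Of 13 fibroblast markers 12 were on the array and tested, with a summed signal of 71810 to 75410 in untreated wildtype, 70120 to 72500 in untreated Rb null, 58640 to 61290 in cisplatin-treated wildtype and 45170 to 45720 in cisplatin-treated Rb null arrays. All 10 macrophage markers were tested, and their sum was 4992 to 5318, 6860 to 7154, 10710 to 11250 and 5656 to 5861 in the same order. These sums pool markers that moved apart. By the calling rule given below, 4 fibroblast markers rose and 5 fell with cisplatin in wildtype cells, among them Lum (3.11) and Col5a1 (-2.40). In Rb null cells 0 rose and 6 fell. Of the macrophage markers 5 rose and 0 fell in wildtype, and 2 rose and 7 fell in Rb null cells. Of the epithelial, muscle, endothelial and erythroid markers 3 of 8, 4 of 8, 1 of 5 and 0 of 5 passed the filter. The summed muscle signal was 3584 to 3798 in untreated wildtype and 2161 to 2265 in untreated Rb null arrays. It was 688.5 to 933.2 in treated wildtype and 747.2 to 870.6 in treated Rb null arrays. Of the 4 tested muscle markers 3 were called lower in untreated Rb null than in untreated wildtype cells, and 0 higher. The epithelial sum was 543.9 to 950.3 in untreated and 1411 to 1610 in treated arrays, and 2 keratins rose with cisplatin, Krt18 by 2.31 log2 units in wildtype MEFs and 2.13 without Rb, Krt19 by 1.29 and 2.42; the part of any of these markers in the results below was not tested.

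Most of the mitochondrial ribosomal protein genes changed by less than 1.5-fold in each of the 5 comparisons. A gene was called, and is described as having risen or fallen, when its adjusted p in limma (Benjamini-Hochberg over the 13575 tested probe sets) was under 0.05 and its change at least 1.5-fold, which is 0.585 on the log2 scale. Differences are on the scale of log2(signal + 10.4), which understates changes of weak genes, and each gene was read from 1 probe set. By this rule 18 of the 74 genes were called in at least 1 comparison and 56 in none. The matching share over all tested genes was not computed. In single comparisons 0% to 13.5% of the 74 were called, against 13.2% to 36.9% of all tested genes. The interquartile range of the 74 genes was 0.33 log2 units in the wildtype response to cisplatin and 0.51 in the Rb null response, against 0.65 and 0.85 over all 7945 genes tested. For 48 of the 74 wildtype responses and 46 of the Rb null responses the 95% confidence interval of the response lay wholly within 1.5-fold either way, 64.9% and 62.2%, compared with 48.5% and 39.6% of all genes. In untreated cells this held for the genotype difference of 62 of the 74 (83.8%, all genes 64.3%). Cytosolic ribosomal proteins and respiratory chain subunits, taken up below, had narrower ranges and larger shares of such intervals. Their interquartile ranges were 0.19 and 0.25 in the wildtype and 0.11 and 0.46 in the Rb null response. Intervals within 1.5-fold made up 79.5% and 86.8% of their wildtype responses and 75% of the Rb null responses of each. For untreated genotypes the shares were 95.5% and 92.1%. A narrow range does not exclude a common shift. In the Rb null response 35 of the 44 cytosolic genes were higher by adjusted p alone, with a median of 0.30. In wildtype 11.4% of the cytosolic genes were called, against 10.8% of the 74. The median SE of the 2 lists was also smaller, 0.06 and 0.08 against 0.10, which narrows the intervals.

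**Figure D1:**
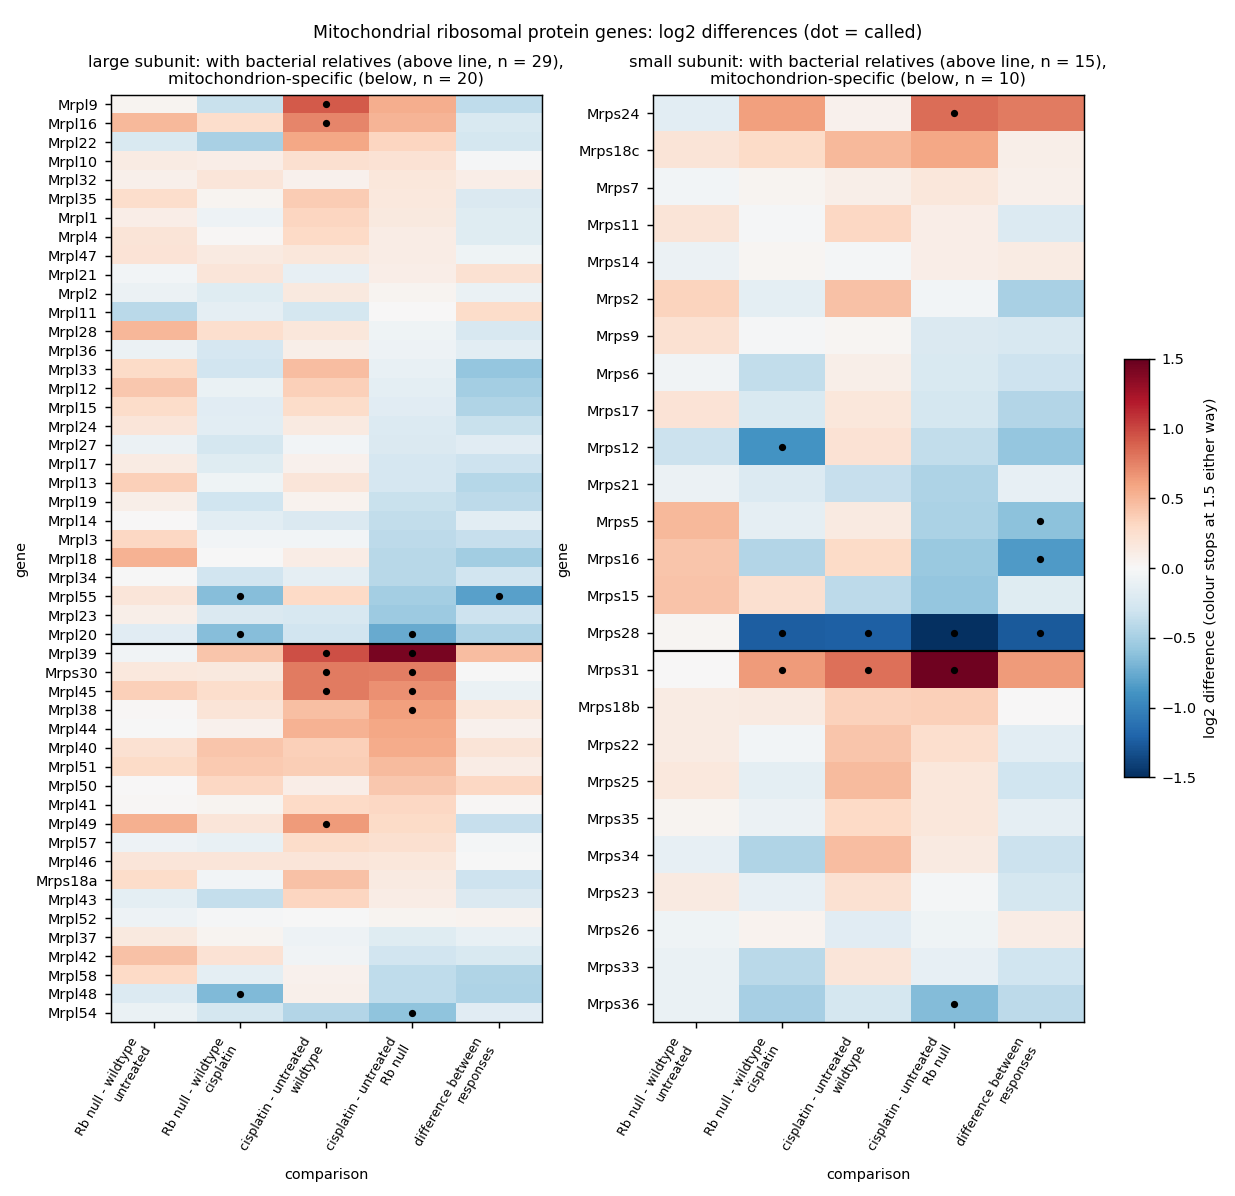
Log2 difference of each of the 74 genes (rows) in the 5 comparisons (columns), large subunit at left and small subunit at right, ordered within each class by the Rb null response; red is higher, blue lower, and a black dot marks a called difference. Most cells are pale and without a dot, and Mrps28, Mrps31 and Mrpl39 carry the strongest colours.

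In wildtype cells cisplatin raised 7 of the 74 genes and lowered 1, where 14.8% of all tested genes rose and 12.7% fell. Those that rose were Mrpl39, Mrpl9, Mrps31, Mrpl45, Mrps30, Mrpl16 and Mrpl49, by 0.64 to 0.97 log2 units, and Mrps28 fell. The median response of the 74 genes was 0.18, against 0.06 over all genes, and 56 of the 74 lay above 0. By adjusted p alone, with no minimum change, 28 were higher and 4 lower (all genes 32.0% and 24.5%). In Rb null cells 6 rose and 4 fell, where 16.6% of all genes rose and 20.3% fell. Mrps31, Mrpl39, Mrps24, Mrps30, Mrpl45 and Mrpl38 rose, by 0.62 to 1.46 log2 units, and Mrps28, Mrpl20, Mrps36 and Mrpl54 fell, with log2 differences of -0.60 to -2.49. Here the median was 0.03 against -0.02 over all genes, and by adjusted p alone 19 were higher and 21 lower (all genes 31.3% and 34.3%). The Rb null split depended on scaling: with each array centred on its median, which shifted the median response of all genes by 0.15, 12 rose and 2 fell (85.7% of calls higher in place of 60%), and with quantile normalization 9 rose and 3 fell (75%). The wildtype split stayed at 87.5% to 88.9% higher under both. The median of the 74 minus that of all genes was 0.12 (wildtype) and 0.04 (Rb null) as deposited and when centred, and 0.11 and 0.01 after quantile normalization.

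The 4 genes Mrpl39, Mrpl45, Mrps30 and Mrps31 rose in both genotypes, which is 57.1% of those that rose in wildtype and 66.7% of those that rose in Rb null cells; no gene was called in opposite directions. The wildtype and Rb null responses share no arrays, and across the 74 genes, which are not independent, they correlated with Pearson's r = 0.813 and Spearman's rho = 0.72. Neither the overlap nor the correlation was computed over all tested genes. Whether such values are particular to the 74 genes was therefore not tested.

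**Figure D2:**
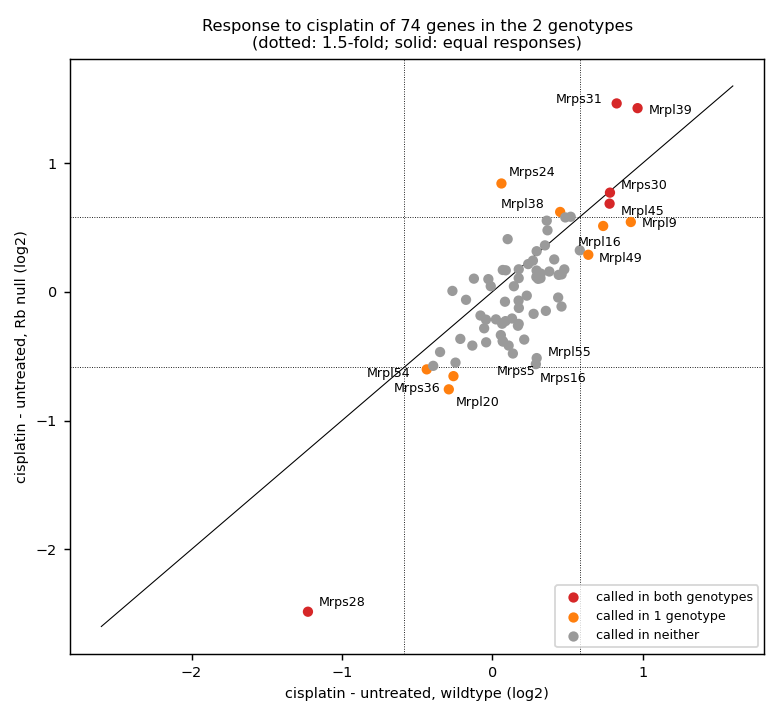
Response to cisplatin (log2) in wildtype cells (horizontal axis) against Rb null cells (vertical axis) for the 74 genes, 1 point per gene; dotted lines mark 1.5-fold, and the solid line equal responses. Most points lie between the dotted lines, 4 genes stand beyond them at upper right, and Mrps28 alone lies far at lower left, below the line of equal responses.

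The gene that changed most was Mrps28, the small-subunit relative of bacterial ribosomal protein S1. Its signal was 640.3, 606 and 546 on the untreated wildtype arrays and 619, 571 and 634 on the untreated Rb null arrays. With cisplatin it read 256, 240.0 and 251 in wildtype and 107, 94.8 and 98.7 in Rb null cells. The untreated groups overlapped, every treated array lay below every untreated array, and every treated Rb null array lay below every treated wildtype array. The fall was 2.34-fold in wildtype (log2 difference -1.23, SE 0.09, adjusted p 6.02e-08) and 5.60-fold in Rb null cells (log2 difference -2.49, SE 0.09, adjusted p 2.33e-11). The responses differed by -1.26 log2 units (SE 0.13, adjusted p 6.51e-06). Mrps28 remained called in the same direction, in these 3 comparisons and between the treated genotypes, under every alternative setting that was run and with any 1 array left out.

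Among large-subunit proteins without a bacterial relative, 4 of 20 tested genes rose in wildtype and 4 rose and 1 fell in Rb null cells, with median responses of 0.31 and 0.27. Over all tested genes 14.8% rose and 12.7% fell in wildtype, and 16.6% rose and 20.3% fell in Rb null cells. Whether this class or those below differed from these shares was not tested. Mrpl39, a large-subunit protein related to threonyl-tRNA synthetases, had signals of 971, 993 and 889 in untreated wildtype and 881, 923 and 948 in untreated Rb null arrays. After cisplatin they were 1834, 1887 and 1876 in wildtype and 2394, 2469 and 2591 in Rb null cells. The 3 levels, untreated, treated wildtype and treated Rb null, did not overlap. Mrpl39 rose 1.95-fold in wildtype (log2 difference 0.97, SE 0.07, adjusted p 1.43e-08) and 2.69-fold in Rb null cells (log2 difference 1.43, SE 0.07, adjusted p 1.54e-10). The larger Rb null response passed by adjusted p but was under 1.5-fold (log2 difference 0.46, SE 0.09, adjusted p 0.00136). Its second probe set gave 0.55 in wildtype, short of the minimum, and 0.89 in Rb null cells.

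Mrpl45, which lies at the exit tunnel and ties the ribosome to the inner membrane, read 516, 496 and 441 in untreated wildtype arrays and 609.9, 631 and 633 in untreated Rb null arrays. With cisplatin it reached 861, 811 and 841 in wildtype and 1062, 987 and 985 in Rb null arrays, and none of the 4 groups overlapped. Its rise was 1.72-fold in wildtype (log2 difference 0.78, SE 0.08, adjusted p 7.99e-07) and 1.61-fold in Rb null cells (log2 difference 0.69, SE 0.08, adjusted p 2.04e-06). Mrps30, a large-subunit protein in spite of its symbol, read 633, 515 and 496 in untreated wildtype and 537, 620.4 and 673 in untreated Rb null arrays. Treated arrays gave 926, 895 and 1019 in wildtype and 909, 1099.8 and 1137 in Rb null cells. The genotypes overlapped both without and with the drug, and treated arrays lay above untreated ones in each. Mrps30 rose 1.72-fold in wildtype (log2 difference 0.78, SE 0.12, adjusted p 4.69e-05) and 1.71-fold in Rb null cells (log2 difference 0.77, SE 0.12, adjusted p 3.77e-05), and its responses differed by -0.01 with a 95% interval from -0.36 to 0.34.

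The other called genes of this class moved in 1 genotype by the rule. Mrpl49 rose in wildtype, from 438, 384 and 403 to 658, 679 and 589 (log2 difference 0.64, SE 0.09, adjusted p 2.54e-05). In Rb null cells it went from 627, 590.1 and 566 to 759, 669 and 758, 0.29 log2 units, and the responses differed by -0.35 (adjusted p 0.0396), under the minimum change. Its untreated Rb null arrays already lay above the untreated wildtype ones, and a second probe set rose in both genotypes (0.75 and 0.79). Mrpl38, a protein of the central protuberance, rose in Rb null cells, from 395, 382 and 357 to 604, 593 and 563 (log2 difference 0.62, SE 0.11, adjusted p 0.000125), a call lost without untreated Rb null array 3 and with a larger pseudocount (45.8). Its wildtype response was 0.45, from 429, 326 and 369.9 to 458, 535 and 553, and the difference between responses did not pass the test (0.17, adjusted p 0.403). Mrpl54 fell in Rb null cells, from 659, 474 and 491 to 317, 379 and 355 (log2 difference -0.60, SE 0.13, adjusted p 0.00116), and the call was lost under both other scalings, with the larger pseudocount and without untreated Rb null array 1 or treated Rb null array a. The wildtype response of Mrpl54 was -0.44 (adjusted p 0.0129), under the minimum change. Its difference between responses did not pass the test (-0.17, adjusted p 0.524). Mrpl48, whose treated wildtype arrays scattered, is described with the genotype comparison.

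Of the 29 tested large-subunit genes with bacterial relatives, 2 rose in wildtype and 1 fell in Rb null cells; the median responses of the genotypes were 0.14 (wildtype) and -0.11 (Rb null). Mrpl9 rose in wildtype, from 559, 564 and 496 to 1132, 932 and 1034 (log2 difference 0.92, SE 0.11, adjusted p 6.25e-06). The Rb null arrays went from 465, 618 and 599 to 784, 786 and 879, 0.54 log2 units, just short of the minimum, and the responses did not differ by the test (-0.38, adjusted p 0.0718). A second Mrpl9 probe set gave 0.56 in wildtype, also just short. Mrpl16, a neighbour of the peptidyl transferase centre, rose in wildtype from 664, 714 and 759 to 1133, 1291 and 1160.4 (log2 difference 0.74, SE 0.09, adjusted p 8.39e-06). In Rb null cells it started higher, at 1043, 958 and 1000.1, and ended at 1484, 1575 and 1251, a difference of 0.51. Mrpl20 fell in Rb null cells, from 1565, 1157 and 1109 to 826, 723 and 685 (log2 difference -0.76, SE 0.17, adjusted p 0.00129), while the untreated and treated wildtype arrays overlapped, at 1241, 1239.7 and 1874 without and 1094, 1422 and 1012 with the drug. The wildtype response of Mrpl20 was -0.29, and its responses did not differ by the test (-0.47, adjusted p 0.144).

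Among the 15 tested small-subunit genes with bacterial relatives, Mrps28 fell in both genotypes and Mrps24 rose in Rb null cells; the medians were 0.09 (wildtype) and -0.23 (Rb null). Mrps24, the relative of bacterial S3 at the mRNA entry, was read by 2 probe sets, both of a kind (_s_at) that can match more than 1 transcript. The brighter gave 811, 789.7 and 800.3 in untreated wildtype and 942, 748 and 518 in untreated Rb null arrays, and 1161, 485 and 1032 in treated wildtype and 1227, 1532 and 1140.4 in treated Rb null arrays. Its treated wildtype array b lay far below the other two and the untreated groups overlapped, and its call in Rb null cells (log2 difference 0.84, SE 0.26, adjusted p 0.0112) was lost without untreated Rb null array 3 (adjusted p 0.0628). The other probe set, with less spread, rose in both genotypes, by 0.87 in wildtype (SE 0.08, adjusted p 5.31e-07) and 1.32 in Rb null cells (adjusted p 3.85e-09), and was higher in treated Rb null than in treated wildtype cells by 0.62 (adjusted p 2.58e-05). The 10 tested small-subunit genes without bacterial relatives had medians of 0.32 and 0.15. Of these Mrps31 rose in both genotypes. Its signal was 202, 379 and 365 in untreated wildtype and 419.5, 260.2 and 257 in untreated Rb null arrays. With cisplatin it was 589.6, 545 and 511 in wildtype and 911, 779.5 and 888 in Rb null arrays. The untreated arrays scattered widely and still lay below every treated one. Mrps31 rose 1.77-fold in wildtype (log2 difference 0.83, SE 0.21, adjusted p 0.00401; 0.55, under the minimum, without untreated wildtype array 1) and 2.76-fold in Rb null cells (log2 difference 1.46, SE 0.21, adjusted p 2.53e-05). Mrps36, a protein named as a ribosomal subunit and since also found as a component of the 2-oxoglutarate dehydrogenase complex, fell in Rb null cells, from 763, 609 and 642 to 387, 409 and 471 (log2 difference -0.65, SE 0.13, adjusted p 0.000574). The call was lost without untreated Rb null array 1 and with centred arrays, and the wildtype groups overlapped, at 863, 609 and 704 without and 642, 519 and 643 with the drug. The wildtype response of Mrps36 was -0.26, and its responses did not differ by the test (-0.40, adjusted p 0.114).

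**Figure D3:**
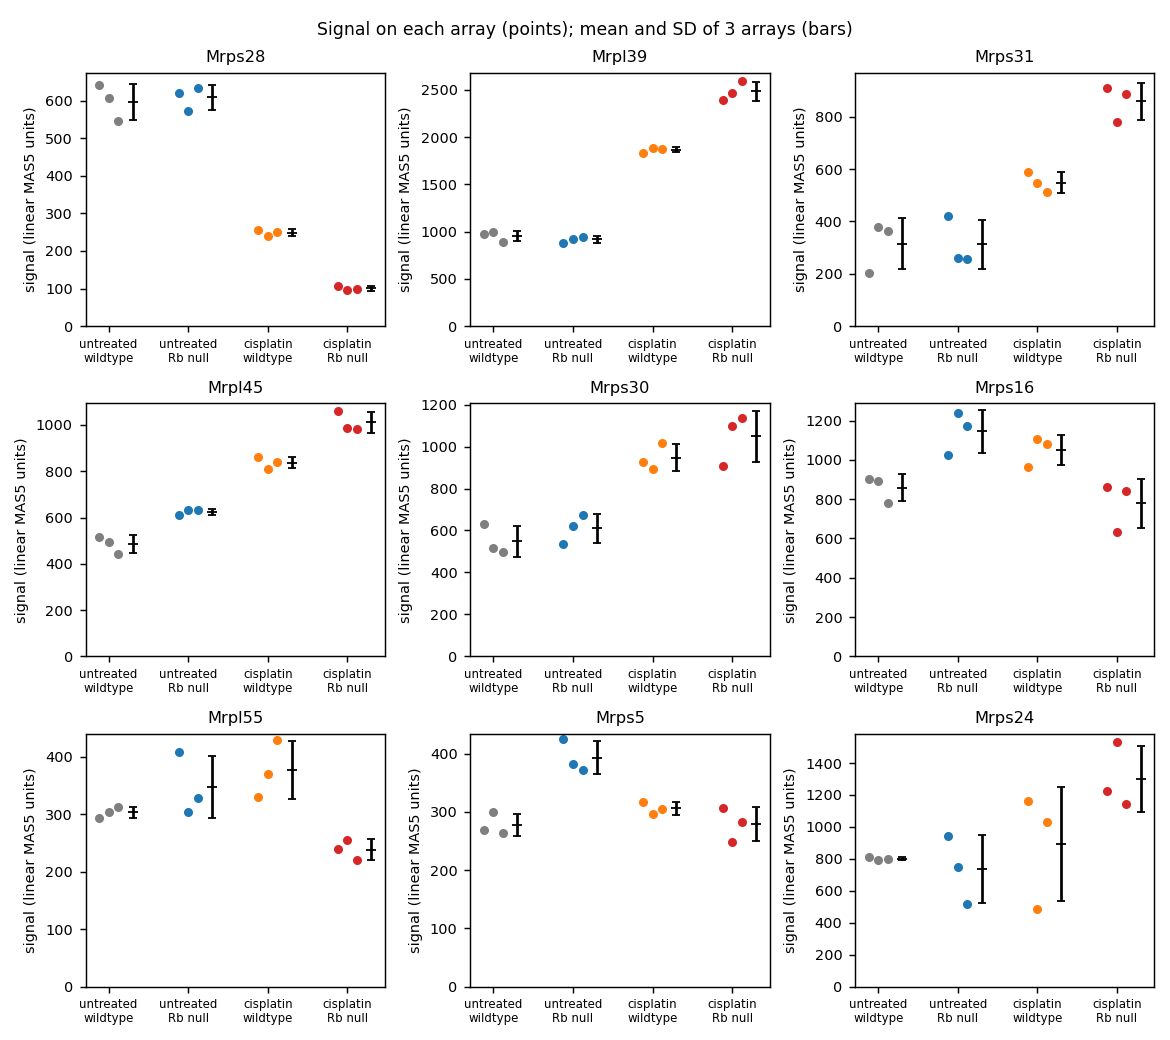
Signal on each array (points, linear scale from 0) with the mean and SD of the 3 arrays of each group (bars) for 9 genes. Mrps28 steps down with cisplatin and farther in Rb null cells, Mrpl39, Mrps31, Mrpl45 and Mrps30 step up, and Mrps24 scatters. Mrps16 is highest in an untreated Rb null and Mrpl55 in a treated wildtype array, and both are lowest in a treated Rb null array. Mrps5 is highest in the untreated Rb null arrays, and its other groups overlap.

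In 4 genes the response to cisplatin differed between genotypes, each time being lower in Rb null cells; none differed the other way, where 15.0% of all genes had a lower and 8.70% a higher response. Besides Mrps28 these were Mrps16, Mrpl55 and Mrps5. By adjusted p alone 14 were lower and 2 higher (all genes 24.1% and 15.2%), and in limma without adjustment 23 were lower and 2 higher at p under 0.05 (all genes 29.1% and 18.7%). The median difference was -0.21 against -0.07 over all genes, and 18 of the 74 lay above 0. The difference between responses equals the treated minus the untreated genotype difference, so it is not independent of the latter. The median of the 74 minus that of all genes was 0.12 between untreated genotypes, -0.02 between treated genotypes and -0.13 for the difference. With each array centred on its median, which shifted the median of all genes by 0.10, 1 gene was higher and 3 were lower; with quantile normalization none was higher and 3 were lower. Mrps16, a small-subunit protein whose loss is known to impair mitochondrial translation, read 903, 891 and 781 in untreated wildtype and 965, 1108 and 1082 in treated wildtype arrays. In Rb null cells it read 1025, 1239 and 1175 untreated and 859.5, 635 and 839.5 with cisplatin. The wildtype arrays were higher with the drug and the Rb null arrays lower, without overlap in either, and the responses differed by -0.85 (SE 0.16, adjusted p 0.000904), although neither response reached 1.5-fold (0.29 and -0.56).

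Mrpl55, the relative of bacterial L31, had signals of 294, 303 and 313 in untreated wildtype and 329.5, 371 and 429.7 in treated wildtype arrays. Untreated Rb null arrays gave 408, 304 and 329 and treated ones 239.6, 255 and 219.8. The treated Rb null arrays lay below all others, and the responses (0.30 and -0.51) differed by -0.81 (SE 0.17, adjusted p 0.00225). Mrps5, a small-subunit protein near the mRNA entry, read 269, 299.5 and 264 in untreated and 318, 296 and 305 in treated wildtype arrays. In Rb null cells the signals were 426, 383 and 371 untreated and 307, 249 and 283 with cisplatin. The untreated Rb null arrays stood above all others, the treated genotypes overlapped, and the responses differed by -0.62 (SE 0.14, adjusted p 0.00401). Its second probe set gave -0.25 (adjusted p 0.392), and the call was lost under both other scalings, with the larger pseudocount, with the mean over both probe sets and without untreated wildtype array 3, untreated Rb null array 1 or treated Rb null array b. All 4 differences used the untreated wildtype arrays, whose sex-linked transcripts stood apart.

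Between the genotypes without drug, limma called none of the 74 genes, where 8.07% of all genes were higher and 5.08% lower in Rb null cells. By adjusted p alone 15 were higher and 1 lower (all genes 18.7% and 16.8%), and without adjustment 21 were higher and 2 lower at p under 0.05 (all genes 22.8% and 21.2%). The median difference was 0.11 against -0.01 over all genes, or 0.07 against -0.03 after quantile normalization, and 49 of the 74 lay above 0. The 15 ranged from 0.20 to 0.53. Mrpl49 was at 408 ± 27.8 (SD, n = 3) in wildtype and 594 ± 30.6 in Rb null arrays, a log2 difference of 0.53 (SE 0.09, adjusted p 0.000315). Mrps5 (0.49), Mrpl16 (0.49), Mrps16 (0.41) and Mrpl45 (0.36) were also among the 15, without overlap between the genotypes. The 1 lower gene was Mrps12, of the decoding centre, at 955 ± 82.5 in wildtype and 768 ± 106 in Rb null arrays (-0.32, adjusted p 0.0201).

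After cisplatin, 5 of the 74 genes were lower and 1 higher in Rb null than in wildtype cells, where 13.3% of all genes were lower and 9.67% higher. By adjusted p alone 18 were lower and 7 higher (all genes 30.2% and 22.9%), and the median difference was -0.07 against -0.05. This split moved with scaling, from 16.7% of calls higher to 40% (2 higher, 3 lower) when arrays were centred on their medians and 25% (1 and 3) with quantile normalization. Mrps28 differed most (log2 difference -1.23, SE 0.09, adjusted p 1.44e-07), with the signals given above. Mrps12 read 1161, 1076 and 1080.4 in treated wildtype and 588, 593 and 581 in treated Rb null arrays, 1.87-fold lower without overlap (log2 difference -0.90, SE 0.10, adjusted p 3.3e-06). Its 2 responses, 0.21 and -0.37, differed by -0.58 (adjusted p 0.00394), just under the minimum change. Mrpl20 (-0.64) and Mrpl55 (-0.63) were lower too, and both lost the call when arrays were centred on their medians and without treated Rb null array c. Mrpl20 also lost it without treated wildtype array b, and Mrpl55 without treated wildtype array c, with quantile normalization and with the larger pseudocount. Mrpl48, a mitochondrion-specific large-subunit protein, read 566, 314 and 359.9 in treated wildtype and 213, 309 and 235 in treated Rb null arrays (log2 difference -0.66, SE 0.20, adjusted p 0.0135). Its groups were separated by a narrow gap, and the call was lost with quantile normalization, with the mean over both its probe sets, and without treated wildtype array a, the brightest (adjusted p 0.0738), or treated Rb null array a (adjusted p 0.0578). Mrps31 was the 1 higher gene (log2 difference 0.64, SE 0.21, adjusted p 0.0205), and its call was lost without treated wildtype array c (adjusted p 0.0634), treated Rb null array a (0.0605) or treated Rb null array c (0.0561).

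For 26 of the 74 genes several probe sets were tested and for 48 a single one. The probe sets of a gene disagreed about the call in 3 of the 26 genes in each comparison of 2 groups except untreated genotypes, and in 1 gene in the difference between responses. Between untreated genotypes no probe set of these genes was called, so none could disagree. The median gap between the highest and lowest probe set of a gene was 0.12 to 0.28 log2 units. Probe sets also differed in sign without a call. The 5 of Mrpl15 ranged from -0.47 to 0.39 between untreated genotypes and from -0.40 to 0.49 in the wildtype response. Between treated genotypes the genes that disagreed about the call were Mrpl13, Mrpl48 and Mrps24. In Mrpl13 the brightest probe set gave -0.07, and 2 weaker ones, of which 1 was called and carries a suffix for cross-hybridization (_x_at), gave 0.59 and 0.57; the second Mrpl48 probe set gave -0.49 (adjusted p 0.00531). For the wildtype response they were Mrpl39, Mrpl9 and Mrps24, described above, and for the Rb null response Mrpl41, Mrpl49 and Mrps15. The brighter Mrpl41 probe set gave 0.32 and a second 0.99 (adjusted p 4.29e-07), and Mrps15 gave -0.57 and -0.64.

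Gene length separated Mrps28 from the other members. It was the longest of the 74, at 122 kb in the RefSeq annotation (GRCm38.p6), the next being Mrpl48 at 62.5 kb, and the median was 7.61 kb against 21.9 kb over 7938 genes with a length. Over all these genes, longer genes had lower responses to cisplatin, with Spearman's rho at -0.313 for the wildtype and -0.406 for the Rb null response. The 795 genes over 100 kb had medians of -0.58 and -0.99, and the 978 genes under 5 kb medians of 0.13 and 0.18. Mrps28, the 1 member over 100 kb, lay below both of the former medians, at -1.23 and -2.49. Within the 74, rho was -0.02 (wildtype) and -0.09 (Rb null), and 0.02 and -0.05 without Mrps28. The 8 members of 20 to 100 kb had medians of 0.08 and -0.24, and the 41 of 5 to 20 kb 0.23 and 0.10. These are correlations across genes, which are not independent replicates. Whether length had a part in the fall of Mrps28, a single gene, was not tested.

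**Figure D4:**
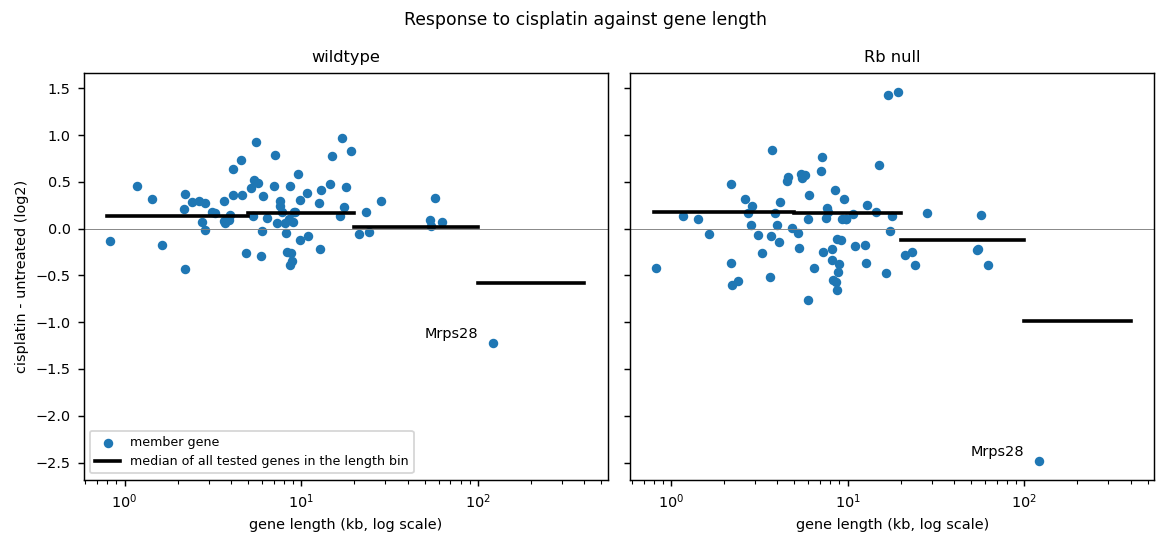
Response to cisplatin (log2) against gene length (kb, log scale) for the 74 member genes (points) in wildtype (left) and Rb null cells (right); black lines are the medians of all tested genes in 4 length bins. The lines drop for genes over 100 kb, to -0.58 and -0.99, where Mrps28 is the only member.

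Some proteins of the mitochondrial ribosome carry other names. Of 6 listed 4 were tested, and Gadd45gip1, a large-subunit protein also described as a cell cycle inhibitor, was the 1 called. Its signal was 395, 344 and 280.3 in untreated wildtype and 302, 384 and 360.0 in untreated Rb null arrays, and 757, 739.8 and 746 in treated wildtype and 276, 377 and 324 in treated Rb null arrays. Only the treated wildtype arrays were high, without overlap with the other 3 groups, and the responses differed by -1.23 (SE 0.19, adjusted p 0.000185). Of the 10 tested mitochondrial translation factors, 1 rose and 1 fell in wildtype and 3 fell in Rb null cells. For this and the lists that follow, the shares over all genes were 14.8% risen and 12.7% fallen in wildtype. In Rb null cells they were 16.6% and 20.3%, and no list was tested against these shares. Pdf, the deformylase that trims new mitochondrial proteins, rose in wildtype, from 291, 308 and 299 to 714, 809.7 and 812 (log2 difference 1.35, SE 0.10, adjusted p 2.78e-08). In Rb null cells its groups overlapped, at 414, 467 and 463 without and 366, 451 and 439 with the drug, and the responses differed by -1.45 (adjusted p 2.14e-06). Mrrf, the ribosome recycling factor, fell in both genotypes (-0.63 and -1.06). Lrpprc, which stabilizes mitochondrial mRNAs, fell in Rb null cells (-1.17), as did Gfm2, which works with Mrrf (-0.66). Wildtype cells gave -0.58 for Lrpprc (adjusted p 0.00277), just under the minimum change, and -0.25 for Gfm2 (adjusted p 0.054). The responses differed by -0.60 for Lrpprc (adjusted p 0.0272) and by -0.41 for Gfm2 (adjusted p 0.0356), the latter under the minimum change.

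Among 21 tested genes for ribosome assembly and rRNA modification, 3 rose in wildtype, and 3 rose and 2 fell in Rb null cells. The rRNA methyltransferase gene Mrm3 and the assembly factor gene Mterf4 rose in both, by 0.67 and 0.64 in wildtype and 0.71 and 0.77 in Rb null cells, and Mettl17, needed for small-subunit assembly, fell in Rb null cells (-1.05). The wildtype response of Mettl17 was -0.56 (adjusted p 0.00151), just under the minimum change. Its responses differed by -0.49 (adjusted p 0.0422), also under that minimum. In this list a response was called higher in Rb null cells for Ngrn (0.71, adjusted p 0.00146). It was called lower for Fastkd2 (-0.66, adjusted p 0.0473) and Afg3l2 (-0.63, adjusted p 0.00776). Of 8 tested mitochondrial aminoacyl-tRNA synthetases, Pars2 rose and Fars2 fell in both genotypes, Fars2 from 295, 273 and 215 to 106, 74.1 and 70.6 in wildtype and from 292, 292 and 293 to 79.7, 117 and 93.6 in Rb null cells, and Rars2 and Sars2 fell in Rb null cells. In wildtype cells Rars2 gave -0.50 (adjusted p 0.000487), under the minimum change, and Sars2 -0.15 (adjusted p 0.469). The responses differed for Rars2 (-0.79, adjusted p 0.000447) but not by the test for Sars2 (adjusted p 0.0518). The 10 tested genes for transcribing and copying mitochondrial DNA included 1 riser in wildtype and 4 among Rb null responses, and none fell. Tfam, which packages mitochondrial DNA and starts its transcription, went from 446, 471 and 429 to 886, 876 and 892 in wildtype and from 633, 654 and 701 to 1443, 1561 and 1451 in Rb null cells (log2 difference 1.15, SE 0.07, adjusted p 3.87e-09). None of its 4 groups overlapped, and the untreated genotype difference (0.55) was under the minimum change. Mgme1 and Polg2, which act in replication, rose in Rb null cells (1.22 and 1.09). In wildtype cells they gave 0.47 (adjusted p 0.0133) and 0.53 (adjusted p 0.0202), both under the minimum change. The responses differed for Mgme1 (0.75, adjusted p 0.0105) but not by the test for Polg2 (adjusted p 0.094).

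Of the 7 tested nuclear regulators, Esrra, a nuclear receptor that drives mitochondrial genes, rose in both genotypes, from 349.9, 307 and 297 to 607, 642 and 674 in wildtype and from 263, 276 and 275 to 796, 674 and 764 in Rb null cells. Gabpa, the DNA-binding subunit of GABP, rose in Rb null cells (0.70). Its wildtype response was 0.42 (adjusted p 0.000686), under the minimum change. The Gabpa responses did not differ by the test (0.29, adjusted p 0.071). Nrf1, whose core letters were the first motif searched, was not called in either response (0.45 and -0.18), and these differed by -0.63 (adjusted p 0.0109). The 44 tested cytosolic ribosomal protein genes had median responses of 0.10 (wildtype) and 0.30 (Rb null), with 4 risen and 1 fallen, and 4 risen and 0 fallen. The 76 tested respiratory chain subunits had medians of 0.01 and 0.12, with 2 risen and 2 fallen, and 6 risen and 2 fallen. For the difference between responses the cytosolic ribosomal proteins had a median of 0.19 and the respiratory chain 0.07, both above the -0.21 of the mitochondrial ribosomal proteins; the difference between these lists was not tested.

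**Figure D5:**
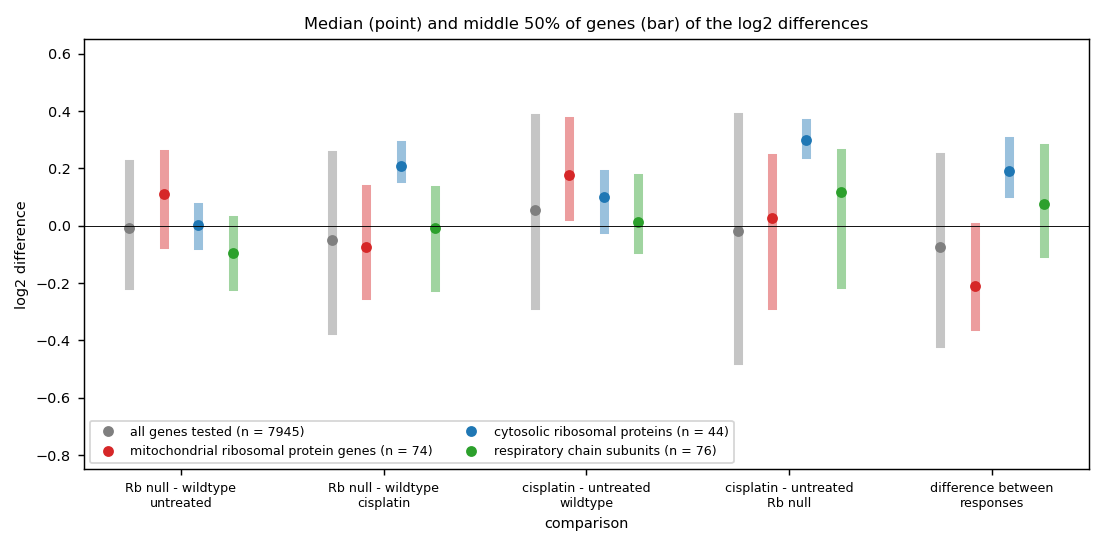
Median (point) and interquartile range (bar) of the log2 differences in the 5 comparisons for all tested genes, the mitochondrial ribosomal protein genes, cytosolic ribosomal proteins and respiratory chain subunits. The mitochondrial ribosomal protein genes lie above all genes in untreated Rb null cells and in the wildtype response, and lowest of the 4 sets in the difference between responses, at -0.21. These comparisons all use the untreated wildtype arrays and are not independent results.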

How the data were processed

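The values used are signal intensities per probe set on a linear scale, as deposited; MAS5, a method of Affymetrix that summarizes every array on its own, is named for them per the submitters' processing notes (version and settings not given in the sources used here). After trimming 2% at each end the mean of every array was 500.1 or 500.2, so the deposited scale was kept. RNA input was 6 µg per array. Values were turned into log2 after adding 10.4, the 10th percentile; the 64 controls and the 40% of the other probe sets with the lowest mean were left out, and 13575 were tested. Detection calls were not used, so no background level was set. Gene symbols came from the platform annotation, 1 probe set per gene (no cross-hybridization suffix where possible, then the highest mean; 7945 genes). A linear model of the 4 group means over the 12 arrays was run in limma 3.58.1 under R 4.3.3 (lmFit, eBayes with trend; 8 residual and 6.09 prior degrees of freedom; two-sided), and the code was tested on simulated data. Same-numbered arrays of the 2 genotypes did not deviate together (r from -0.186 to 0.109), so no replicate block was used. The genes, gene lists and tests were chosen with earlier results of these data known; Mrps28 was placed among genes with bacterial relatives after its values were seen. Named are the called members with the 8 largest rises and falls of each comparison, members whose probe sets disagree about the call, up to 3 called genes each way of the companion lists (a selection is printed), Rb1 and sex-linked transcripts. Alternatives were other pseudocounts (1 and 45.8), no filter or a 60% filter, quantile normalization, median centring, no variance trend, no or a 2-fold minimum, the compared groups alone, a replicate block, each array or the untreated wildtype group left out, and all probe sets of a gene.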

Additional observations from a re-analysis of the deposited data

Results flagged for a closer look

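In 4 genes the response to cisplatin differed between Rb null and wildtype cells by the test of the difference itself (limma, adjusted over 13575 probe sets), and in each it was lower in Rb null cells, where 15.0% of all genes were called lower. The difference was -1.26 log2 units for Mrps28 (SE 0.13, adjusted p 6.51e-06), which fell in both genotypes. For Mrps16 it was -0.85 (SE 0.16, adjusted p 0.000904), with wildtype arrays higher and Rb null arrays lower after the drug. It was -0.81 for Mrpl55 (SE 0.17, adjusted p 0.00225) and -0.62 for Mrps5 (SE 0.14, adjusted p 0.00401). The Mrps5 call was lost in 8 of 23 alternative settings, among them both other scalings and 3 that left out 1 array. These values use the untreated wildtype arrays, and the part of their sex-linked difference was not tested.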

How the results depend on the processing

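Of 522 values of named genes under alternatives, 466 kept their direction and call, 56 kept the direction without the call and none reversed. These genes were chosen by their calls on the same arrays, so a reversal was unlikely from the start. With no minimum change a call could not be lost, and a 2-fold minimum removed smaller changes by construction. The tally is therefore no independent check. With no minimum change the calls (higher and lower) were 15 and 1 between untreated genotypes, 7 and 18 between treated genotypes, 28 and 4 in the wildtype response, 19 and 21 in the Rb null response, and 2 and 14 in the difference between responses. With a 2-fold minimum, 0 were higher and 1 lower between treated genotypes, 0 rose in wildtype, 2 rose and 1 fell in Rb null cells, and 1 response was lower. Quantile normalization left 3 lower between treated genotypes, with a median of -0.027, and a median of -0.15 for the difference between responses. Median centring gave 2 higher and 3 lower between treated genotypes (median -0.0052), 12 risen and 2 fallen in Rb null cells (median 0.17), a wildtype median of 0.22, and 1 higher response (median -0.11). Averaging the probe sets of a gene gave 2 higher between treated genotypes (median -0.022), and 1 higher response (median -0.16). Counting every probe set gave 3 higher between treated genotypes (median -0.018), 10 risen in Rb null cells (median 0.076) and a median of -0.15 for the difference between responses. The cause of these changes was not tested, except that the fold minimum acts by its own construction.

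With each array left out in turn, 1 to 2 fell in wildtype (2 without untreated wildtype array 2), the wildtype median was 0.15 to 0.22, 0 to 1 responses were higher (1 without untreated wildtype array 1), and between treated genotypes 0 to 2 were higher and 3 to 5 lower. Other counts stayed within 1.5 times.

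With the replicate number as a replicate block, 0 genes were higher between treated genotypes in place of 1, Mrps31 having an adjusted p of 0.0538; the numbers did not pair the arrays, the block applied to the genotype comparisons and the difference between responses only, and other counts of calls stayed within 1.5 times. The fit without untreated wildtype applied to the Rb null response and the treated genotypes. Without detection calls the depth of weak probe sets is unknown, and 3 hybridizations per RNA limit the precision.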
